A study of Mus musculus with 48 samples.

Results

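Stearoyl-CoA desaturase is carried by 4 genes in the mouse, Scd1, Scd2, Scd3 and Scd4, and the 7 array probesets that name them were described here in skin of mice treated with DGAT1 inhibitors. Members were all probesets whose gene symbol was Scd1, Scd2, Scd3 or Scd4, so that 4 of the 19147 genes named on the array were covered. Scd1, Scd2 and Scd3 had 2 probesets each and Scd4 had 1. Each probeset is given with the transcript it was made for, such as Scd3 (NM_024450). The 4 genes are close in sequence, and whether a probeset also binds transcripts of its relatives was not tested. All 7 passed the filter on low values, which was set on the mean over all 48 arrays and left 28789 of 38385 probesets.

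DGAT1 makes triglyceride from diglyceride and a fatty acyl-CoA, and the study asked which transcripts in skin go with atrophy of the sebaceous gland under inhibitors of this enzyme. The mice were male C57BL/6 with obesity induced by diet, labelled 8 weeks old, and each gave 1 skin sample after 14 days of dosing with compound or with the methylcellulose vehicle alone. Study 1 held vehicle, Cpd1 and Cpd2 (8 mice each), Study 2 had groups of 4 on vehicle, Cpd2 or Cpd6, and in Study 4 groups of 4 were given vehicle, Cpd6 or Cpd18. Cpd2 and Cpd6 were described in the study as skin-positive, meaning that they caused sebaceous gland atrophy, and Cpd1 and Cpd18 as skin-negative. No mouse carried a modified gene, and the obese diet was shared by every group. The labels call the tissue dorsal skin, whereas the methods allow dorsal or ventral skin, and whole biopsies were used, so fewer cells of a type and less RNA per cell cannot be told apart. The dose was not on the labels, and in the histology of the study Cpd1 was given at a lower dose than Cpd2. The same may hold here, so their values are set side by side only.

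Stearoyl-CoA desaturases sit in the membrane of the endoplasmic reticulum and put a double bond into palmitoyl-CoA and stearoyl-CoA, which gives palmitoleate and oleate. Electrons reach them from NADH through cytochrome b5 reductase and cytochrome b5. Scd1 is the main form in liver and fat and is needed for normal sebaceous glands, since mice without it have atrophied glands and lose hair. Scd2 is the main form in brain, Scd3 is a form of sebaceous and Harderian glands that prefers palmitoyl-CoA, and Scd4 was first described in heart.

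The 4 genes lie next to each other on mouse chromosome 19, in the order Scd3, Scd2, Scd4 and Scd1, with noncoding or pseudogene entries between some of them. The promoters of Scd3 and Scd4, of which the first fell and the second rose with Cpd6 in Study 4, are printed. Those of Scd1 and Scd2 were not used here. Each window runs from 250 bases before to 50 bases after the transcript start (RefSeq, build GRCm38.p6, plus strand, chr19:44203038-44203337 for Scd3 and chr19:44333076-44333375 for Scd4), and capitals mark the runs of 9 bases that both hold.
Scd3: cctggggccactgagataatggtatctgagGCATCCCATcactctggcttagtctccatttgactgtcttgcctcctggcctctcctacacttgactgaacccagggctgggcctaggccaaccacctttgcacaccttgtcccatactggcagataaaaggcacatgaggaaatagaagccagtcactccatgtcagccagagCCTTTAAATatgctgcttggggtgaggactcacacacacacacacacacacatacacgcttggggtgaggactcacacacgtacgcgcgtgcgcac
Scd4: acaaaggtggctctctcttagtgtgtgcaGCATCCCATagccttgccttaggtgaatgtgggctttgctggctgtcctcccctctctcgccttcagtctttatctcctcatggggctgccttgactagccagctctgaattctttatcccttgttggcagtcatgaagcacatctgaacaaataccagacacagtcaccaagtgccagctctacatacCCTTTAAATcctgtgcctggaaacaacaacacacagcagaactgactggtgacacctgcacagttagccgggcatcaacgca
When the windows were aligned with gaps allowed, 186 of 276 aligned positions were identical (67.4%). Without alignment, 79 of 300 bases (26.3%) were identical at the same position. No unrelated windows were aligned, so what any pair of windows would reach was not tested. The runs in capitals were picked as the longest shared ones. Their shares of windows below therefore do not say how often a pair of windows shares some run of that length. The shared run GCATCCCAT began 220 bases before the start in Scd3 and 221 bases before it in Scd4, and was held by 0.116% of all 32851 promoter windows. The run CCTTTAAAT began 46 bases before the start in Scd3 and 32 bases before it in Scd4, and 0.28% of all windows held it. Neither window had a match on either strand to TATAAA (held by 13.6% of windows), CCAAT (37.4%), TCACNCCAC (1.24%), CACGTG (7.15%), GGGCGG (35.7%) or AGGTCA (16.3%), which says only that these letters were not there.

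All values below are log2 intensities made from deposited RMA intensities, and a log2 fold change (log2 FC) is a difference of group means, given with its standard error (SE). Compounds were tested against the vehicle mice of their own study with limma, with p-values adjusted by Benjamini-Hochberg over all 28789 probesets and a call at an adjusted p below 0.05. The labels do not say more than that the mice of a group were separate samples, and the p-values measure the spread between them. Both compounds of a study share its vehicle mice.

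Some arrays and cell type markers moved with the treatments. The mean level of 18 skeletal muscle genes lay between 5.50 and 11.93 in the Cpd2 mice of Study 1 and between 10.06 and 12.19 in their vehicle mice, and all 18 genes were called lower (median log2 FC -2.59), where 6.00% of all probesets were. Replicates 3, 7 and 4 of that Cpd2 group had the lowest muscle level (5.50, 6.42 and 7.40). Vehicle replicate 4 of Study 1 stood apart from its group, with the lowest muscle (10.06) and adipocyte (9.71) and the highest hair follicle level (10.63). Sebaceous gland markers were called lower in 4 of 15 genes for Cpd2 in Study 1, none for Cpd2 in Study 2, 2 for Cpd6 in Study 2 and 6 for Cpd6 in Study 4, and none for Cpd1 or Cpd18. Of all probesets, 6.00%, 0.0868%, 0.288% and 6.17% were called lower in those first 4 comparisons. Hair follicle growth genes had median log2 FCs of -3.41 and -4.29 for Cpd2 and Cpd6 in Study 2 and -4.29 for Cpd6 in Study 4. Of 15 genes, 0, 1 and 3 were called lower there, beside the shares of all probesets just given. Vehicle mice of Study 2 were spread from 4.84 to 10.54 in the mean hair follicle level. The medians were -0.38 with Cpd2 and 1.57 with Cpd1 in Study 1 and -0.40 with Cpd18, each with 0 called. Body position genes were higher in Cpd1 mice (mean level 7.36, SD 0.18 over 8 mice) than in their vehicle mice (6.43, SD 0.19 over 8 mice), with 4 of 10 called higher, where 0.247% of all probesets were. With Cpd2 in Study 1, 8 of 11 markers of differentiated and 3 of 5 of basal keratinocytes and 5 of 6 of T cells were called higher, where 7.09% of all probesets were, and 1 of 8 endothelial markers lower and 1 of 4 Schwann and nerve markers higher. With Cpd6 in Study 4, 5 of 6 melanocyte markers (median log2 FC -1.56) and 4 of 5 macrophage markers (-0.71) were called lower. So were 2 of 8 fibroblast markers. Called higher there were 4 of 8 endothelial, 4 of 18 skeletal muscle, 3 of 5 basal and 2 of 11 differentiated keratinocyte markers. Of 6 T cell markers, 1 was called lower and 1 higher. Of all probesets, 6.17% were called lower and 4.56% higher. Melanocyte medians in Study 2 were -1.56 with Cpd2 and -1.84 with Cpd6. With Cpd18 the melanocyte median was -0.97 and the macrophage median -0.70, each with 0 called. Of 11 adipocyte markers, 1 was called in any comparison with vehicle, higher with Cpd6 in Study 4. The part of these differences in the results below was not tested, except where values without the mice in question are given.

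Scd3 was lower under the skin-positive compounds in each study that gave them, and by both of its probesets. Relative to the vehicle mean, the level measured by NM_024450 was 7.10% with Cpd2 in Study 1, 24.4% with Cpd2 in Study 2, 16.2% with Cpd6 in Study 2 and 16.7% with Cpd6 in Study 4. With the skin-negative compounds it was 110.3% (Cpd1) and 113.7% (Cpd18). Scd3 belongs to the set of transcripts that the study picked on Studies 1 and 2, so the fall in those studies was built into that choice. The choice also left out transcripts that differed between Cpd1 and vehicle, so the Cpd1 level near vehicle was built in as well. Study 4 is the one that did not enter it.

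In Study 1, Scd3 (NM_024450) ranged from 8.71 to 10.35 in vehicle mice (median 10.14) and from 3.85 to 8.31 in Cpd2 mice (median 6.20). The groups did not overlap, which held in either direction for 1.91% of all probesets. The log2 FC was -3.82 (SE 0.43, limma adjusted p = 1.6e-06), a 14.1-fold lower level. Scd3 (BC118033) ranged from 8.88 to 10.61 in vehicle mice (median 10.38) and from 4.18 to 8.91 in Cpd2 mice (median 6.45), with a log2 FC of -3.68 (SE 0.42, limma adjusted p = 2.1e-06). Here the highest Cpd2 mouse (8.91) lay just above the lowest vehicle mouse (8.88), which was the vehicle replicate 4 named above. The spread among Cpd2 mice was wide, with an SD of 1.45 for NM_024450 against 0.57 in vehicle mice.

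These 3 Cpd2 mice, lowest in muscle markers, also had the 3 lowest Scd3 levels, at 4.49, 3.85 and 5.39 for NM_024450 and 5.46, 4.18 and 5.34 for BC118033 (replicates 3, 4 and 7). They were also the 3 lowest of the group in the mean level of sebaceous gland markers (8.59, 8.54 and 8.64). Leaving them out therefore does not concern muscle alone. Without these 3 mice the log2 FCs were smaller in size, at -2.95 (SE 0.33) and -2.80 (SE 0.32), and limma adjusted p-values were 7.6e-06 and 9.8e-06. With the muscle level as a covariate they were -2.58 (SE 0.36) and -2.45 (SE 0.35), with limma adjusted p-values of 0.00012 and 0.00016.

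In Study 2, Scd3 (NM_024450) read 9.56, 9.42, 9.70 and 9.34 in vehicle mice, 7.20, 7.08, 8.07 and 7.53 in Cpd2 mice and 6.44, 6.92, 6.86 and 7.31 in Cpd6 mice. Every treated mouse lay below every vehicle mouse, and groups without overlap in either direction made up 3.35% of all probesets with Cpd2 and 6.83% with Cpd6. The log2 FC was -2.03 (SE 0.21, limma adjusted p = 0.00037) with Cpd2 and -2.62 (SE 0.21, limma adjusted p = 1.6e-05) with Cpd6. Scd3 (BC118033) moved alike, by -1.81 (SE 0.22, limma adjusted p = 0.0014) and -2.37 (SE 0.22, limma adjusted p = 5.5e-05), again with no overlap. A single fit over all 48 arrays, which pools the wide spread of Study 1, gave limma adjusted p-values of 0.0577 and 0.150 for Cpd2. In the methods' t-test with Benjamini-Hochberg adjustment these Study 2 calls were lost, with adjusted p-values of 0.310 and 0.345 for Cpd2 and 0.0655 and 0.0867 for Cpd6 (NM_024450 first).

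In Study 4, Scd3 (NM_024450) read 9.11, 9.46, 9.19 and 9.24 in vehicle mice, 9.24, 9.62, 9.59 and 9.28 in Cpd18 mice and 6.03, 6.89, 7.11 and 6.62 in Cpd6 mice. Cpd6 mice lay apart from both other groups, as 18.9% of all probesets did in either direction against vehicle and 6.37% against Cpd18, while Cpd18 mice lay among the vehicle mice or slightly above them. The log2 FC of Cpd6 against vehicle was -2.59 (SE 0.18, limma adjusted p = 2.0e-06), and against Cpd18 it was -2.77 (SE 0.18, limma adjusted p = 1.4e-06). Scd3 (BC118033) gave -2.11 (SE 0.25, limma adjusted p = 0.00036) and -2.20 (SE 0.25, limma adjusted p = 0.00025). The adjusted methods' t-test kept both calls against vehicle and lost those against Cpd18 (adjusted p = 0.0553 and 0.221). Cpd18 against vehicle differed by 0.18 (95% confidence interval -0.20 to 0.57) and 0.09 (-0.44 to 0.63).

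**Figure D1:**
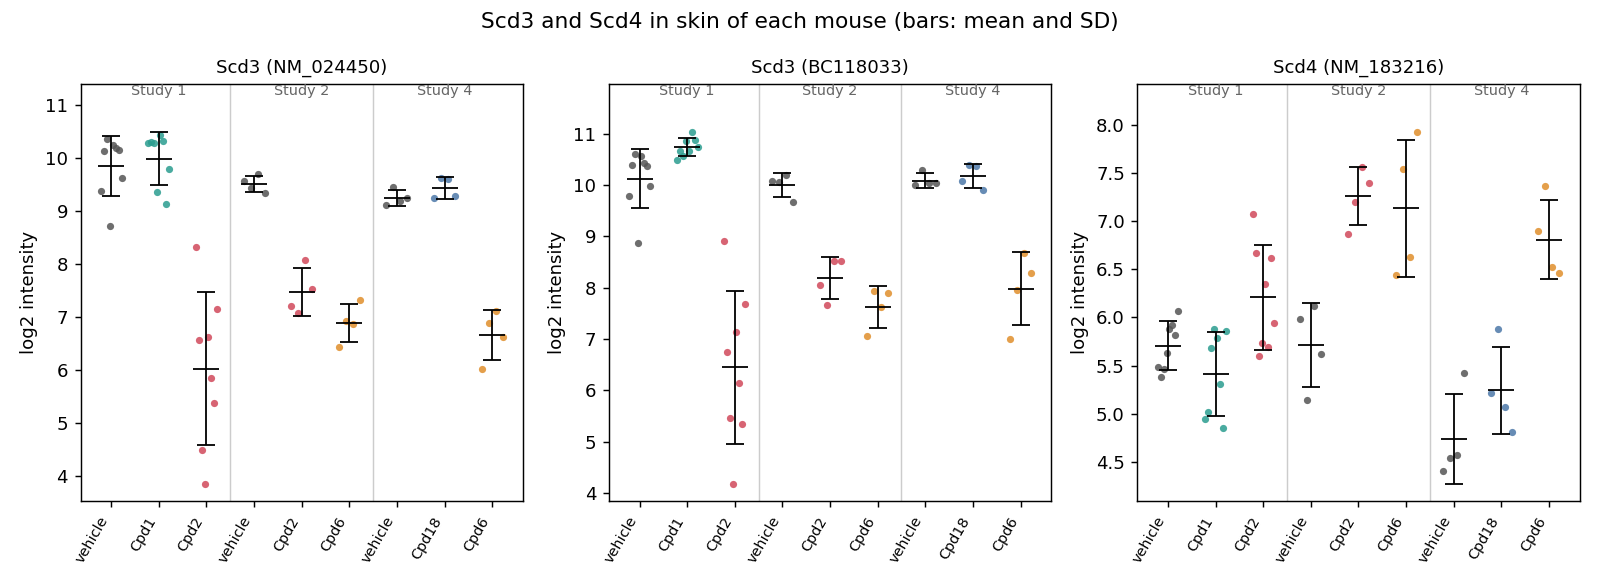
Log2 intensity of both Scd3 probesets and of Scd4 (vertical axes) in each of 48 mice, by study and treatment (horizontal axis), where points are mice and bars are the mean and SD of a group. Scd3 was low in all 4 groups given Cpd2 or Cpd6, with Study 1 Cpd2 mice spread from 3.85 to 8.31 for NM_024450, and Scd4 was highest in the Study 2 and Study 4 groups given these compounds.

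With Cpd1 in Study 1 the 2 Scd3 probesets differed from each other. Scd3 (BC118033) ranged from 10.48 to 11.03 (median 10.71), and 6 of 8 Cpd1 mice lay above the highest vehicle mouse (10.61). This was a log2 FC of 0.61 (SE 0.42, limma adjusted p = 0.556). The SE of this fit takes in the wide spread of the Cpd2 mice, and an exact 2-sided permutation test of Cpd1 against vehicle alone gave p = 0.0011, unadjusted. Without vehicle replicate 4 the log2 FC was 0.43. Scd3 (NM_024450) ranged from 9.12 to 10.42 (median 10.28), with a log2 FC of 0.14 (SE 0.43, limma adjusted p = 0.920). Cpd1 replicates 4 and 7 were the lowest mice of the group by NM_024450 (9.36 and 9.12), yet both read 10.87 by BC118033. Cpd1 mice also had the higher body position level given above, and its part in the Scd3 (BC118033) reading was not tested. The study's choice left out probesets that differed between Cpd1 and vehicle, so these Cpd1 readings are not independent of it.

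For Scd3 the Cpd2 log2 FC of Study 1 minus that of Study 2 was -1.78 (NM_024450, SE 0.59, limma adjusted p = 0.111) and -1.87 (BC118033, SE 0.60, limma adjusted p = 0.0983), which did not pass the threshold. Across all probesets 0.726% passed this test of the difference. Without Study 1 vehicle replicate 4 the adjusted p-values were 0.0392 and 0.0301, without Cpd2 replicate 1 they were 0.0294 and 0.0234, and without Cpd2 replicate 8 that of BC118033 was 0.0466. For Cpd6, Study 4 minus Study 2 gave 0.04 (95% confidence interval -1.34 to 1.42) and 0.27 (-1.13 to 1.66). Between Cpd2 and Cpd6 within Study 2, Scd3 was 0.59 (95% confidence interval 0.14 to 1.03) and 0.57 (0.11 to 1.03) higher with Cpd2. Neither passed the threshold (limma adjusted p = 0.447 and 0.485), nor did any probeset on the array in this comparison (0% called, 2370 at an unadjusted p below 0.05).

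Scd4 moved in the other direction. It was 4.22-fold higher with Cpd6 than with vehicle in Study 4, and its level was 291.7% and 266.8% of vehicle with Cpd2 and Cpd6 in Study 2, where the limma test was not passed. In Study 4, Scd4 read 4.40, 4.54, 4.57 and 5.42 in vehicle mice, 5.21, 5.88, 5.07 and 4.81 in Cpd18 mice and 6.89, 7.36, 6.52 and 6.46 in Cpd6 mice. All Cpd6 mice lay above all others, and 18.9% of all probesets had no overlap in either direction against vehicle and 6.37% against Cpd18. On the linear scale the vehicle mice read 21.1, 23.3, 23.8 and 42.9, near the array medians of 26.4 to 30.8. Whether readings this low stand above background was not tested, which limits the fold.

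Scd4 rose with Cpd6 in Study 4 by 2.08 against vehicle (SE 0.26, limma adjusted p = 0.00058) and by 1.57 against Cpd18 (SE 0.26, limma adjusted p = 0.0093). The call against Cpd18 was lost without Cpd18 replicate 4, with a log2 FC of 1.43 and a limma adjusted p of 0.0507, and it was also lost in the adjusted methods' t-test (adjusted p = 0.260). Cpd18 against vehicle gave 0.51 (95% confidence interval -0.05 to 1.07, limma adjusted p = 0.648). With the hair follicle level as a covariate the log2 FC of Cpd6 against vehicle was 2.15 (SE 0.33, limma adjusted p = 0.0034). In Study 4 the hair follicle level was 4.52 to 6.25 in Cpd6 mice and 4.62 to 10.10 in vehicle mice. The vehicle mouse lowest in it, replicate 2 at 4.62, had an Scd4 level of 4.54. In Study 2 that mouse was vehicle replicate 1 at 4.84, with an Scd4 level of 5.99. A single mouse in each study decides nothing, and treatment and hair follicle level largely went together in these groups. Beyond the covariate fit, the part of hair growth in the Scd4 difference was not tested.

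In Study 2, Scd4 read 5.99, 5.14, 6.12 and 5.62 in vehicle mice, 6.87, 7.21, 7.57 and 7.40 in Cpd2 mice and 6.44, 7.54, 6.63 and 7.93 in Cpd6 mice. No treated mouse overlapped with a vehicle mouse, beside the 3.35% (Cpd2) and 6.83% (Cpd6) of all probesets without overlap in either direction. The log2 FCs were 1.54 (SE 0.30, limma adjusted p = 0.0908) and 1.42 (SE 0.30, limma adjusted p = 0.0669), both short of the threshold. Without vehicle replicate 1 they passed it, with limma adjusted p-values of 0.0317 and 0.0308, and without Cpd6 replicate 1 that of Cpd6 was 0.0426. The fit over all 48 arrays gave limma adjusted p-values of 0.0105 and 0.0122. Cpd2 and Cpd6 differed by 0.13 (95% confidence interval -0.52 to 0.78).

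In Study 1, Scd4 ranged from 5.39 to 6.07 in vehicle mice (median 5.73), from 4.85 to 5.88 in Cpd1 mice (median 5.49) and from 5.60 to 7.07 in Cpd2 mice (median 6.15). Of the Cpd2 mice, 4 lay above all vehicle mice and 4 lay among them. Log2 FCs were 0.50 for Cpd2 (SE 0.20, limma adjusted p = 0.110) and -0.29 for Cpd1 (SE 0.20, limma adjusted p = 0.560). The Cpd2 change in Study 1 minus that in Study 2 was -1.04 (SE 0.38, limma adjusted p = 0.145).

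**Figure D2:**
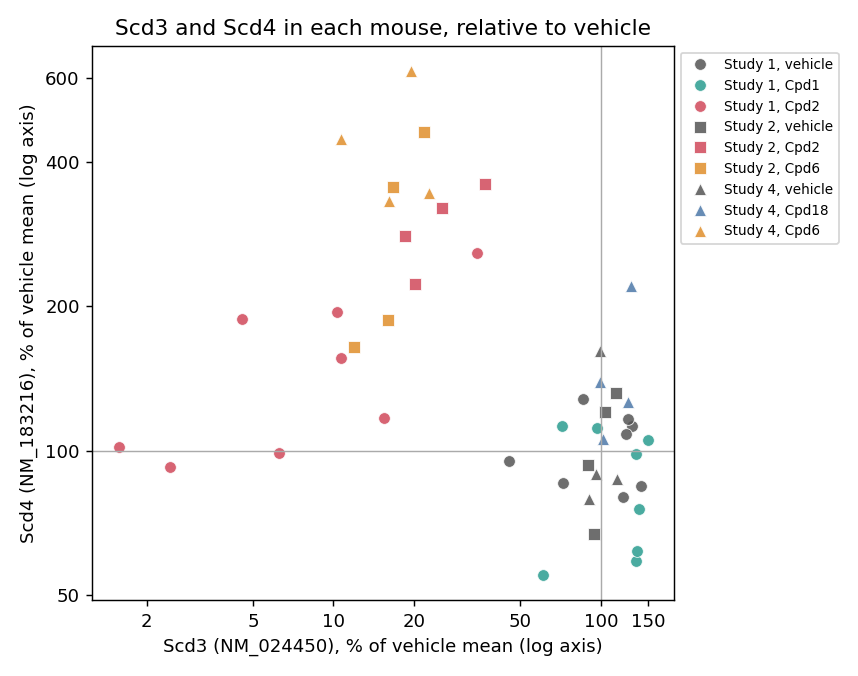
Scd3 (NM_024450, horizontal axis) and Scd4 (vertical axis) of each mouse as a percentage of the vehicle mean of its study, both on log axes, where marker shape gives the study and colour the treatment. All Cpd2 and Cpd6 mice lie left of the vehicle mice, and in Study 1 the Cpd2 mice with the lowest and second lowest Scd3 have Scd4 near 100%, whereas the third lowest has 188.2%.

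Scd3 and Scd4 did not mirror each other from mouse to mouse. Over 48 mice, centred on vehicle, the correlation of Scd4 with Scd3 was -0.44 (NM_024450) and -0.43 (BC118033). After the mean of each group was taken out it was 0.41 and 0.34, pooled over all groups. The Cpd2 mice of Study 1, with the widest Scd3 spread (SD 1.45 for NM_024450), weigh most in these values. Correlations within single groups were not computed. The mice share their group, study and biopsy, and these values are descriptions.

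Scd1, the form on which normal sebaceous glands depend, gave different readings by its 2 probesets. Scd1 (NM_009127) read near the top of the range of the array, between 12.78 and 13.15 in all 48 mice, and its log2 FC lay between -0.06 and 0.03 in the 6 comparisons with vehicle. None passed, and the 95% confidence intervals reached from -0.19 to 0.18. Whether this probeset can still report a difference at such intensities was not tested.

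Scd1 (AK148103) was lower with Cpd2 in Study 1. It ranged from 9.85 to 11.16 in vehicle mice (median 10.87), from 10.63 to 11.04 in Cpd1 mice (median 10.69) and from 9.71 to 10.51 in Cpd2 mice (median 10.07). Apart from vehicle replicate 4 at 9.85, every vehicle mouse lay at 10.70 or above and every Cpd2 mouse at 10.51 or below. Its log2 FC was -0.69 (SE 0.13, limma adjusted p = 0.00069). It was -0.62 without the 3 mice lowest in muscle markers (limma adjusted p = 0.0163) and -0.51 with muscle as a covariate, where the call was lost (limma adjusted p = 0.0677).

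In Study 2, Scd1 (AK148103) read 10.82, 10.96, 11.00 and 10.36 in vehicle mice, 10.48, 10.34, 10.51 and 10.64 in Cpd2 mice and 10.33, 10.56, 10.26 and 10.12 in Cpd6 mice. The lowest vehicle mouse, replicate 4, lay among the treated mice. The log2 FC was -0.29 (SE 0.13, limma adjusted p = 0.661) with Cpd2 and -0.46 (SE 0.13, limma adjusted p = 0.151) with Cpd6, and without vehicle replicate 4 the latter was -0.60 (limma adjusted p = 0.0227). In Study 4 it read 10.64, 10.78, 10.82 and 10.70 in vehicle mice, 10.70, 10.85, 10.74 and 10.62 in Cpd18 mice and 10.31, 10.43, 10.66 and 10.57 in Cpd6 mice. Cpd6 replicate 3, at 10.66, was the single Cpd6 mouse within the vehicle range. The log2 FC was -0.24 (SE 0.08, limma adjusted p = 0.0661) with Cpd6, which passed without that mouse (-0.30, limma adjusted p = 0.0493), and -0.01 (95% confidence interval -0.18 to 0.16) with Cpd18.

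Scd2, the form known from brain and from the developing skin barrier, passed the test with no compound. Scd2 (NM_009128) ranged from 10.80 to 11.44 in the vehicle mice of Study 1 (median 11.02) and from 10.70 to 11.24 in Cpd2 mice (median 10.78). The groups overlapped, and the log2 FC was -0.22 (SE 0.09, limma adjusted p = 0.0956). It passed without Cpd2 replicate 2, the highest mouse of its group (-0.28, limma adjusted p = 0.0257), or without vehicle replicate 8 (-0.26, limma adjusted p = 0.0492). The other 5 comparisons with vehicle gave log2 FCs between -0.22 and 0.09.

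Scd2 (AK083085) varied widely between mice of a group. In Study 2 it read 8.71, 8.75, 9.23 and 8.35 in vehicle mice, 9.10, 7.48, 6.86 and 9.49 in Cpd2 mice and 7.35, 8.98, 8.63 and 7.55 in Cpd6 mice. The Cpd2 mice lay on both sides of the vehicle mice, and the log2 FCs of -0.52 and -0.63 had an SE of 0.50. With Cpd1 in Study 1 the range was 7.68 to 9.20 (median 8.19) against 6.88 to 8.83 in vehicle mice (median 7.61), a log2 FC of 0.51 (SE 0.23, limma adjusted p = 0.342).

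**Figure D3:**
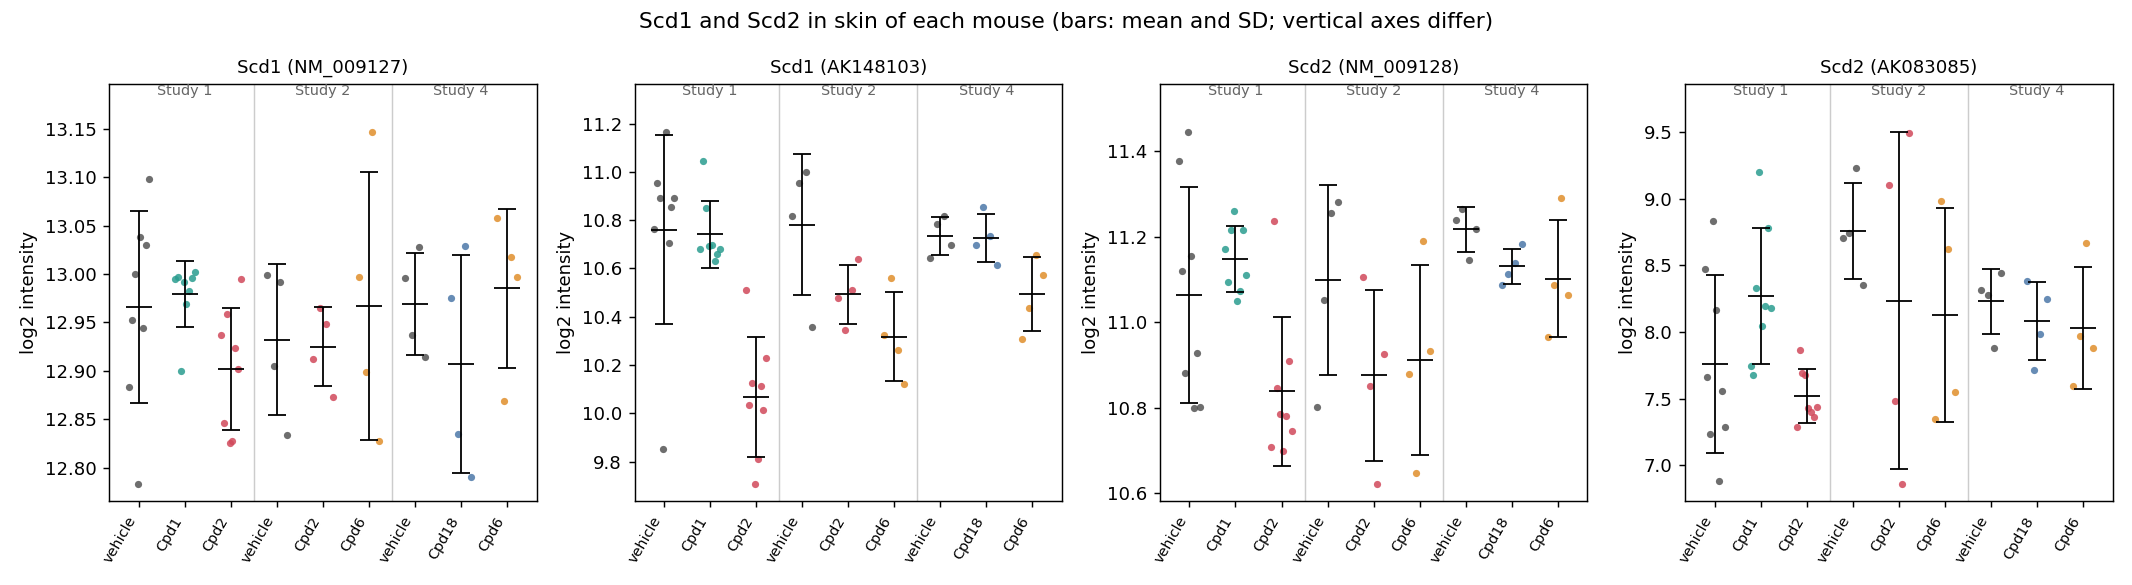
Log2 intensity of the Scd1 and Scd2 probesets (vertical axes, which differ in range) in each of 48 mice, by study and treatment (horizontal axis), where points are mice and bars are the mean and SD of a group. Scd1 (AK148103) is lowest in Study 1 Cpd2 mice, with a single vehicle mouse at 9.85, whereas Scd1 (NM_009127) stays between 12.78 and 13.15 and Scd2 groups overlap.

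Counted over the 7 probesets, 3 were called lower and 0 higher with Cpd2 in Study 1, where 13.1% of all probesets were called (6.00% lower). With Cpd2 in Study 2, 2 were called lower against 0.129% of all probesets (0.0868% lower). With Cpd6, 2 were called lower in Study 2 against 0.379% of all probesets, and 2 lower and 1 higher in Study 4 against 10.7% (6.17% lower, 4.56% higher). Against Cpd18, Cpd6 had 2 called lower and 1 higher, where 0.490% of all probesets were called. Cpd1 had 0 called (0.327% of all probesets; 1 of the 7 at an unadjusted p below 0.05) and Cpd18 had 0 called (0.00347%; 0 of the 7). In the methods' t-test without adjustment 1 of the 7 was below 0.05 with Cpd1 and 1 with Cpd18, and after Benjamini-Hochberg 0 with either. The median log2 FC of the 7 was -0.24, -0.29, -0.46 and -0.20 for Cpd2 in Studies 1 and 2 and Cpd6 in Studies 2 and 4, beside 0.04, 0.02, 0.02 and 0.01 over all probesets. It was 0.09 with Cpd1 and -0.01 with Cpd18.

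**Figure D4:**
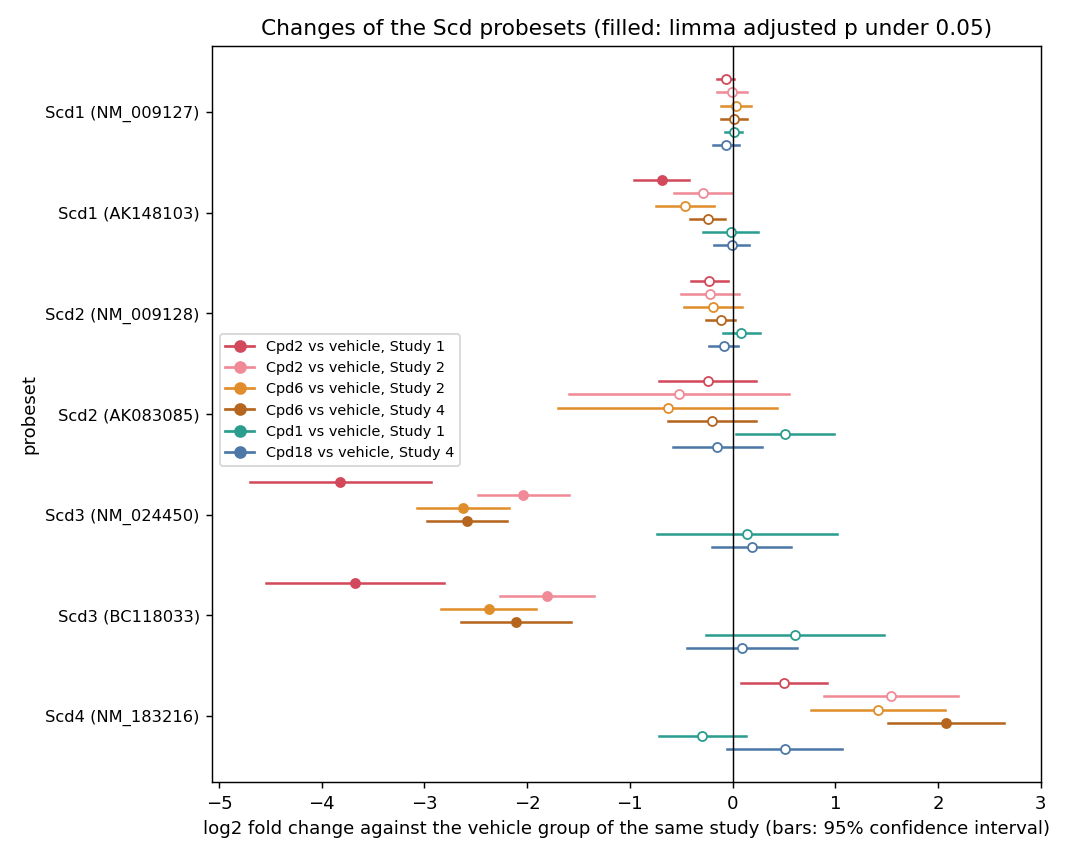
Log2 FC against the vehicle mice of the same study (horizontal axis) for the 7 Scd probesets (vertical axis) in 6 comparisons, where bars are 95% confidence intervals and filled points passed at a limma adjusted p below 0.05. Both Scd3 probesets lie far left of 0 with Cpd2 and Cpd6, from -3.82 to -1.81, and Scd4 lies to the right, with the one filled point at 2.08.

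The transcripts most like each desaturase were found by Pearson's correlation over 48 arrays centred on vehicle, over which study, group and biopsy are shared. Since all 48 arrays entered this choice, the changes of these genes follow in part from it and are given as descriptions. For Scd3 they were Pnpla5 (r = 0.98), a lipase of the adiponutrin family, the serpin genes Serpina3b (0.98) and Serpina3j (0.97), the carboxylesterase gene Ces4a (0.97) and Snap91 (0.97), a clathrin assembly protein. Pnpla5 and Ces4a are in the study's own set of transcripts. With Cpd6 in Study 4 all 5 were called lower, where 6.17% of all probesets were, with log2 FCs of -2.96 (Serpina3b), -2.14 (Serpina3j), -1.70 (Pnpla5) and -1.63 (Ces4a), while Snap91 fell by 1.00. With Cpd18 the 5 genes had log2 FCs between -0.07 and 0.15.

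For Scd1 the most alike were all for the AK148103 probeset. They were Rdh1 (r = 0.91), a retinol dehydrogenase, Hacd2 (0.91) and Elovl4 (0.90), of fatty acid elongation, Mid1ip1 (0.90), which activates acetyl-CoA carboxylase, and Acss2 (0.90), the acetyl-CoA synthetase of the cytosol. In Study 1 with Cpd2, Rdh1 (-1.13), Elovl4 (-0.56) and Mid1ip1 (-0.42) were called lower, and Hacd2 fell by 1.00. For Scd4 they were Gsdma2 (0.89), a gasdermin, Klk10 (0.85), a kallikrein protease, Degs2 (0.84), a sphingolipid hydroxylase and desaturase, Sox7 (0.81), a transcription factor of vessels, and Adgrl2 (0.80), an adhesion receptor, and Sox7 is in the study's set. With Cpd6 in Study 4, Gsdma2 rose by 2.57, Degs2 by 1.89 and Klk10 by 1.45. For Scd2 they were Gtf3c1 (0.83), Palld (0.81), Wasf1 (0.79), Smarca4 (0.78) and Sqle (0.78), of which Sqle makes a step of cholesterol synthesis. None of these 5 was called with any compound against vehicle.

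Among the probesets themselves, the 2 for Scd3 correlated at 0.98 (0.90 within groups), the 2 for Scd2 at 0.67 (0.58) and the 2 for Scd1 at 0.41 (0.46). Scd1 (AK148103) correlated with Scd3 at 0.84 and 0.82 (0.59 and 0.53 within groups).

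Genes that work beside the desaturases were followed in 5 lists with 58 measured genes, each by 1 probeset. Of these, 19 were called lower and 1 higher with Cpd2 in Study 1, 0 with Cpd2 in Study 2, 1 lower with Cpd6 in Study 2 and 7 lower and 2 higher with Cpd6 in Study 4. Of all probesets, 13.1%, 0.129%, 0.379% and 10.7% were called in these comparisons, and 6.00%, 0.0868%, 0.288% and 6.17% were called lower. In either direction, the Study 4 count lay near the share of the whole array. With Cpd1, Cpd18 and Cpd2 in Study 2, limma called 0 and the adjusted methods' t-test 0, with 15, 5 and 6 at an unadjusted limma p below 0.05. The median log2 FC of the 58 genes was -0.23 with Cpd2 in Study 1, 0.02 with Cpd2 in Study 2, -0.01 with Cpd6 in Study 2 and -0.06 with Cpd6 in Study 4. The Study 1 count moved with the mice that entered it. It was 5 when the 3 low-muscle Cpd2 mice, also lowest in sebaceous gland markers, were left out, and 4 with muscle as a covariate. It was 14 without vehicle replicate 6 and 30 without vehicle replicate 4. The shares of all probesets called in these fits are not given here. These changes in the count therefore cannot be read as particular to the 58 genes.

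Of the 12 genes listed under palmitate and stearate supply, 7 were called lower with Cpd2 in Study 1, where 6.00% of all probesets were. The list was broad and also held mitochondrial genes such as Acacb, so the count does not measure that supply alone. The largest were Acss2 at -1.14 (SE 0.16), Acacb, the acetyl-CoA carboxylase of mitochondria, at -1.10 (SE 0.16), the fatty acid synthase Fasn at -0.82 (SE 0.24) and the elongase Elovl6 at -0.55 (SE 0.11). Without the 3 mice lowest in muscle markers Acss2 (-1.02) and Acacb (-1.09) were still called, and Fasn (-0.71, limma adjusted p = 0.138) and Elovl6 (-0.40, limma adjusted p = 0.0538) were not. With Cpd6 in Study 4 Acss2 fell by 0.64 (SE 0.11), the 1 gene of this list that was called, and Fasn had a log2 FC of -0.22 (SE 0.14).

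Of the 6 genes that bring electrons to desaturases, 2 were called lower with Cpd2 in Study 1, where 6.00% of all probesets were. They were Cyb5r2, a cytochrome b5 reductase, at -0.87 (SE 0.19) and Cyb5b, the cytochrome b5 of the outer mitochondrial membrane, at -0.38 (SE 0.09). Neither was called without the 3 mice lowest in muscle markers. With Cpd6 in Study 4 Cyb5a, the cytochrome b5 of the endoplasmic reticulum, was called lower, at -0.66 against vehicle (SE 0.09) and -0.51 against Cpd18 (SE 0.09), the latter lost on leaving out any of 5 single mice.

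Of the 6 other desaturases, 2 were called lower with Cpd2 in Study 1, where 6.00% of all probesets were. They were the polyunsaturated fatty acid desaturase Fads2 (-0.73, SE 0.22) and Fads3 (-0.57, SE 0.14). Neither was called without the 3 mice lowest in muscle markers. The Fads2 difference was as large where it did not pass, at -0.66 with Cpd1 and -0.70 with Cpd18. Degs2 rose with Cpd6 in Study 4 by 1.89 against vehicle (SE 0.25, limma adjusted p = 0.000695) and by 1.54 against Cpd18 (SE 0.25, limma adjusted p = 0.00596). In Study 2 it stood at 1.22 with Cpd2 and 1.15 with Cpd6 (SE 0.30 each), which did not pass, and with Cpd1 at -1.10 (SE 0.27, limma adjusted p = 0.0747).

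Of the 17 genes that use acyl-CoA, the wax synthase gene Awat1, which is known from sebaceous glands, was called lower at -1.03 with Cpd2 in Study 1 (SE 0.19) and at -0.98 with Cpd6 in Study 4 (SE 0.12). In Study 2 with Cpd6, Awat1 fell by 1.00 (SE 0.20, limma adjusted p = 0.04997). The Study 2 call was lost on leaving out any of 5 single mice. The lysophospholipid acyltransferase gene Lpcat3 (-0.77, SE 0.11), the inhibited enzyme's own gene Dgat1 (-0.60, SE 0.15) and the fatty acyl-CoA reductase gene Far1 (-0.57, SE 0.16) were also called lower with Cpd2 in Study 1. Of all probesets, 6.00% were called lower there. Of these 4 genes, Awat1 and Lpcat3 were still called without the 3 mice lowest in muscle markers. With muscle as a covariate Awat1 was at -0.50 and lost its call (limma adjusted p = 0.120), while Lpcat3 was at -0.62 and kept it. In Study 4 with Cpd6, Awat2 (-0.87, SE 0.16), Far1 (-0.46, SE 0.07) and Lpcat3 (-0.35, SE 0.09, lost on leaving out any of 4 single mice) were called lower, and Dgat1 had a log2 FC of -0.23. All 4 genes called there were also called lower with Cpd6 than with Cpd18, where 0.490% of all probesets were called in either direction. However, Far1 lost that call on leaving out any single mouse and Awat2 on leaving out any of 4.

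Of 17 genes that regulate desaturase transcription, Insig2, which holds the SREBP precursor in the endoplasmic reticulum, was called lower at -0.81 with Cpd2 in Study 1 (SE 0.09), at -0.62 with Cpd6 in Study 4 (SE 0.09) and at -0.60 against Cpd18 (SE 0.09). It remained called without the 3 mice lowest in muscle markers and without any single mouse. With Cpd2 in Study 1, Mlxipl, the carbohydrate response factor ChREBP, was at -0.92 (SE 0.29), Insig1 at -0.35 (SE 0.08) and the sterol factor gene Srebf2 at 0.22 (SE 0.07), all called but none of them without those 3 mice. Cebpa rose by 0.15 with Cpd6 in Study 4 (SE 0.05), a call that was lost on leaving out any single mouse. Srebf1, Nr1h2 and Nr1h3 were not analysed here.

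**Figure D5:**
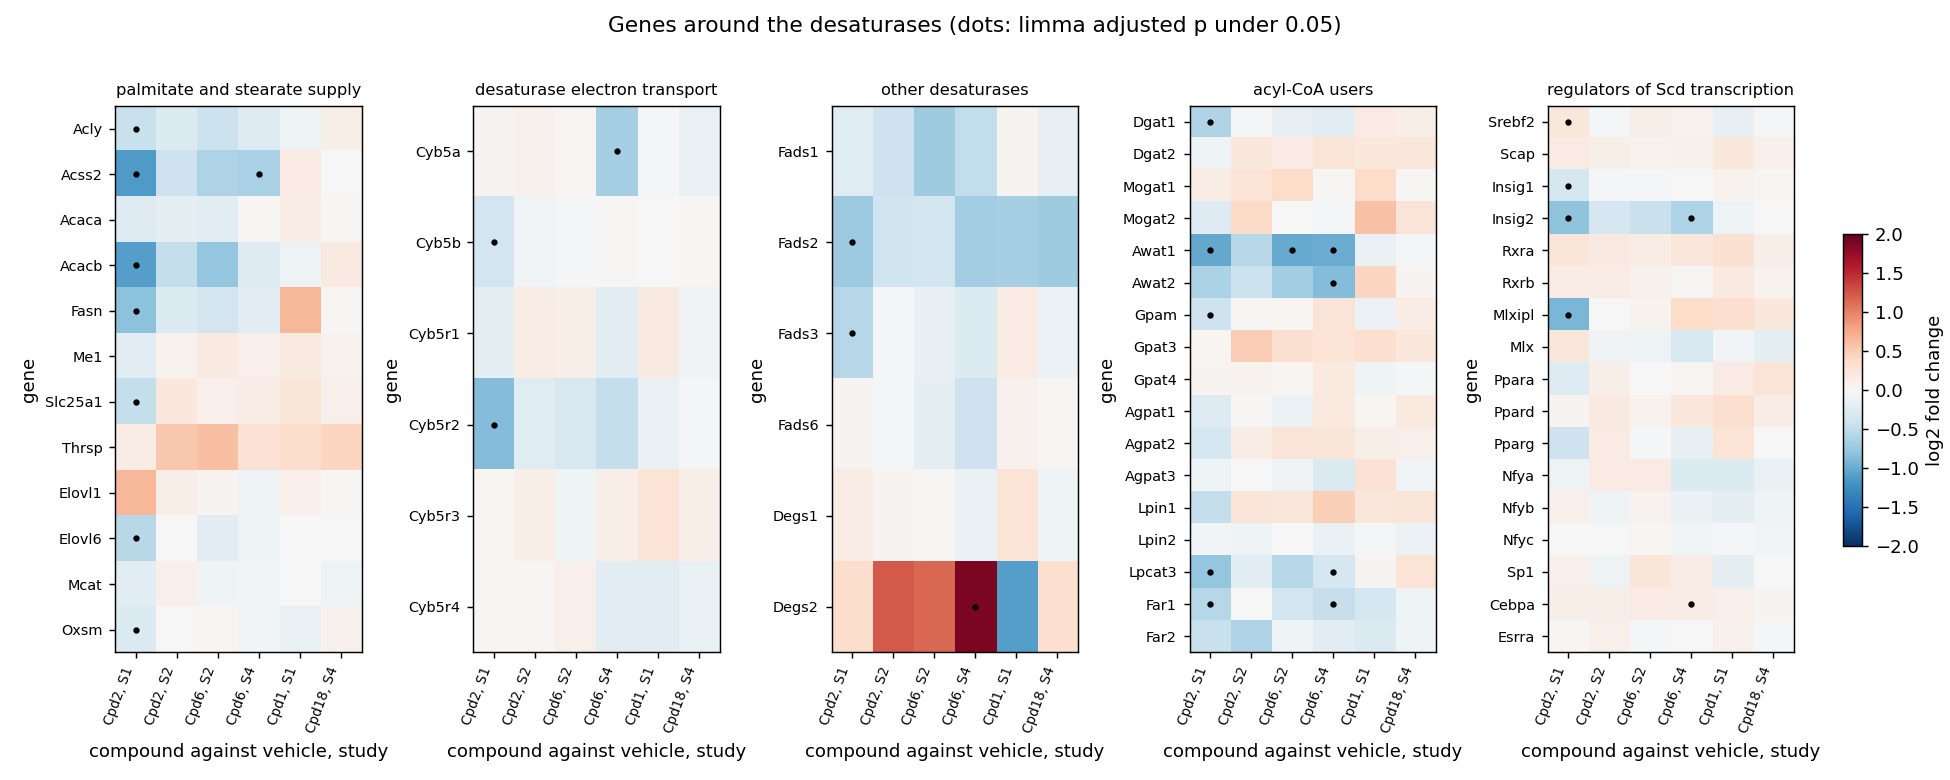
Log2 FC (colour) of genes of the 5 lists (vertical axes) in 6 comparisons of a compound with vehicle (horizontal axes, S1, S2 and S4 standing for Studies 1, 2 and 4), where black dots mark a limma adjusted p below 0.05. Most dots stand in the column of Cpd2 in Study 1, and Acss2, Awat1, Lpcat3, Far1 and Insig2 have dots both there and with Cpd6 in Study 4.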

How the data were processed

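RNA of skin from 48 mice was measured on a custom Affymetrix array, 1 array per mouse. The authors deposited RMA intensities on a linear scale (38385 probesets, array medians from 26.4 to 30.8, range 1.60 to 13570), whose RMA version is not given in the sources used here. RMA corrects background, normalizes arrays to a like distribution and summarises probes, so differences in total RNA are not kept and very high intensities may be compressed. Groups came from the sample labels. Identical arrays were looked for and none were found. The methods' present call could not be repeated, and probesets with a mean over the 48 arrays in the lowest 25 percent (log2 under 2.93) were left out in its place.

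Log2 values were fitted with limma 3.58.1 in R 4.3.3, 3 groups per study, with an intensity trend, and differences between studies in 1 fit over 48 arrays. This replaces the methods' 1-way ANOVA, which was run as a t-test alternative. The script was tested on simulated data. Alternatives covered filters, scaling, array weights, a robust fit, covariates, a replicate block, permutation and leaving out each mouse. Named were all Scd probesets, Dgat1, the 5 genes most like each Scd gene, and of each list up to 4 called genes with the largest change per comparison. Markers of cell types and body position formed 13 lists. Members and lists were chosen with earlier results of these data known. Promoter sequences of Scd3 and Scd4 came from a RefSeq table. Descriptions used Python 3.11.15 with pandas 2.3.3.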

Additional observations from a re-analysis of the deposited data

Results flagged for a closer look

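In 5 of 63 groups of mice tested over the 7 probesets, 1 mouse lay farther from the rest than the 95% critical value of Dixon's test allows, and chance alone gives about 1 in 20. Scd1 (AK148103) was 9.85 in Study 1 vehicle replicate 4, against 10.70 in the next mouse. This mouse also had the lowest Scd3 of its group (8.71 and 8.88). Scd1 (NM_009127) was 12.90 in Study 1 Cpd1 replicate 3, against 12.97 in the next mouse. Scd2 (NM_009128) was 11.24 in Study 1 Cpd2 replicate 2, against 10.91. Scd3 (BC118033) was 10.29 in Study 4 vehicle replicate 2, against 10.03. Scd4 was 5.42 in Study 4 vehicle replicate 4, against 4.57. No difference of a compound's change between studies passed the test in these 7 probesets.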

How the results depend on the processing

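Over all alternatives and probesets, 1624 values kept their side of the threshold, 11 fell short of it and 24 newly passed it. No called value changed sign, whereas some values that were not called did. The methods' t-test after Benjamini-Hochberg called 0 probesets for Cpd2 and 0 for Cpd6 against vehicle in Study 2 (main counts 2 and 2) and 0 for Cpd6 against Cpd18 (main count 3). Without adjustment it had 3, 4 and 4 below 0.05. The fit over all 48 arrays called 1 for Cpd2 in Study 2 as the 2 Scd3 probesets were lost and Scd4 was gained. Array weights called 4 for Cpd6 in Study 2 and 2 for the Cpd2 change between studies (main count 0). The unadjusted exact permutation test gave 1 for Cpd1 (main count 0). Over fits without 1 mouse the Cpd2 change between studies ranged from 0 to 3 called. The causes of these changes were not tested. The smallest p that 4 against 4 mice can give by permutation is 0.0286.

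With the replicate number as a block the counts were 3, 0, 2, 2, 3 and 0 for Cpd2 and Cpd1 in Study 1, Cpd2 and Cpd6 in Study 2 and Cpd6 and Cpd18 in Study 4, and the block changed no call. Mice with the same number correlated between -0.438 and 0.379, over 0.1 in 15 of 48 pairs. Mice with unlike numbers were not set beside them, so whether the numbers pair the mice was not settled. The number of arrays limits the precision.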
